A study of Mus musculus with 2 samples.

Results

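The Igf2bp family consists of 3 genes, Igf2bp1, Igf2bp2 and Igf2bp3, which encode the insulin-like growth factor 2 mRNA-binding proteins. They were taken by symbol from the 31053 genes counted in single-cell RNA libraries of mouse testis, and all 3 are listed in both libraries. One library came from wild type testis and the other from testis labelled Igf2bp1 KO, both at 8 months of age. The design text calls the knockout conditional. The labels name neither the Cre line nor the exons removed. The design text does not make clear how many mice stand behind each library. Each library therefore counts as 1 sample. No difference between the genotypes has a replicate check, no p-value is given, and every interval below covers counting error only.

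IGF2BP proteins bind mRNA through RNA recognition motifs and KH domains, and influence the stability, localisation and translation of the transcripts they hold. IGF2BP1 and IGF2BP3 are called oncofetal because their expression is high in the embryo and in many tumours and low in most adult tissues. In the testis, germ cells pass from mitotic spermatogonia through meiosis as spermatocytes to round and then elongating spermatids, and late germ cells store mRNA for long periods before translating it. IGF2BP mRNAs are known targets of the let-7 microRNAs, whose maturation is blocked by LIN28 proteins.

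The 3 genes lie on different chromosomes (GENCODE M21 annotation, GRCm38). Igf2bp1 (ENSMUSG00000013415) spans chr11:95957163-96005940, Igf2bp2 (ENSMUSG00000033581) spans chr16:22059009-22163299 and Igf2bp3 (ENSMUSG00000029814) spans chr6:49085223-49214957, all on the minus strand. Their coding sequences have 1731, 1776 and 1737 bases, whereas the 3′ UTRs have 6337, 1784 and 2119 bases. Aligned coding sequences were identical at 66.2% of bases between Igf2bp1 and Igf2bp2, 68.3% between Igf2bp1 and Igf2bp3 and 66.2% between Igf2bp2 and Igf2bp3. The longest exact coding run that any pair shared was 20 bases. The library method primes at the 3′ end of the mRNA, and the count does not show which exons a transcript holds. A UMI of Igf2bp1 in the knockout library therefore says nothing about whether the deleted part was present, and the count is no check of the genotype label. Igf2bp1 overlaps the annotated genes Gm29202 and Mir3063, and Igf2bp3 overlaps Gm18010 and Malsu1. Igf2bp2 overlaps no other gene.

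The long 3′ UTR of Igf2bp1 holds the most matches to the let-7 seed among the 3 members. Of 10 mature let-7 sequences in the RefSeq table (GRCm38.p6), 9 share 1 seed, shown here in capitals in let-7a from chr13:48538239-48538260 (minus strand). The capitals in the gene lines mark CTACCTC, the complement of that seed, searched on the transcribed strand of the 3′ UTR only. These windows are shown because the members differ in how many they hold, 4, 1 and 1, although per 1000 bases of 3′ UTR the numbers are close, at 0.63, 0.56 and 0.47.
mmu-let-7a-5p: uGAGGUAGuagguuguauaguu
Igf2bp1, site 1: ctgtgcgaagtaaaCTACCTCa
Igf2bp1, site 2: agcagtgctattaaCTACCTCa
Igf2bp1, site 3: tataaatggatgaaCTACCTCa
Igf2bp1, site 4: cttttggttttaatCTACCTCt
Igf2bp2, site 1: cacacaaataaaagCTACCTCa
Igf2bp3, site 1: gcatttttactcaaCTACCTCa
The Igf2bp1 windows lie at chr11:95961778-95961799, chr11:95959357-95959378, chr11:95958763-95958784 and chr11:95958140-95958161, the Igf2bp2 window at chr16:22059473-22059494 and the Igf2bp3 window at chr6:49086787-49086808, all on the minus strand. At least 1 match was present in 34.2% of 603 3′ UTRs of like length to that of Igf2bp1 (from 0.8 times as long up to the inverse of that ratio), and 4 or more in 0.166%. The shares with a match were 11.8% of 3072 UTRs of like length to Igf2bp2 and 13.1% of 2960 to Igf2bp3. A match is a description of the sequence. MicroRNA levels were not measured in these libraries.

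The wild type library held 17362 barcodes with 121257944 UMIs and the knockout library 17968 barcodes with 98033324 UMIs, with medians of 1242 and 2097 UMIs per barcode. Clusters were named from marker genes, and each name below means that the cells resemble that type. Only 5178 of 17002 kept wild type barcodes (30.5%) and 4072 of 17703 knockout barcodes (23.0%) could be named. The rest held few UMIs or mixed the markers of several types, and in the knockout library the mixed clusters held 50.3% of all UMIs against 9.28% in wild type. The libraries share 106 barcode sequences. Marker genes at 2-fold or more over all kept barcodes numbered 13 and 12 of 14 in spermatogonia (wild type and knockout), 12 of 12 in early spermatocytes and 9 of 11 in elongating spermatids of both libraries. They numbered 4 and 7 of 11 in late spermatocytes and 4 and 1 of 11 in round spermatids, so those 2 classes are less firmly marked. Among Sertoli cells, Fshr was at 0 in wild type and Amh at 0 in the knockout. Peritubular myoid cells were also less firmly marked, with 4 and 5 of 8 markers. Cnn1, Des and Tpm2 were at 0 in wild type and Cnn1 at 0 in the knockout. Protamine and transition protein UMIs were at 60789 and 46184 CPM in this class. They were at 61435 and 46923 CPM in the tenth of kept barcodes with the fewest UMIs.

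Igf2bp1 was a gene of spermatogonia in the wild type testis. The 153 wild type spermatogonia held 77 Igf2bp1 UMIs, a level of 67.7 CPM (UMIs per 1000000 UMIs of the class; exact Poisson 95% interval 53.5 to 84.7). Early spermatocytes held 19.3 CPM (7.08 to 42.0; 6 UMIs in 54 cells), and the level in late spermatocytes was 0.689 CPM (23 UMIs in 1384 cells). The spermatogonial level was 98.3-fold that of late spermatocytes within the wild type library (61.0 to 164). Spermatogonia held 22.4% of the Igf2bp1 UMIs of the wild type library but 0.942% of all UMIs.

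A second, much lower rise was counted after meiosis. Round spermatids, the haploid cells that have not yet begun to elongate, held 3.66 CPM in wild type (3.0 to 4.41; 109 UMIs), and 99 of 986 cells (10.0%) had an Igf2bp1 UMI. This was 5.31-fold the level in late spermatocytes (3.36 to 8.72) and 3.38-fold that in elongating spermatids, which held 1.08 CPM (30 UMIs; ratio interval 2.24 to 5.25). The knockout library showed the same order, with 2.78 CPM in round spermatids, 0.413 CPM in late spermatocytes and 0.595 CPM in elongating spermatids (24, 3 and 7 UMIs). Its round spermatids were 6.73-fold above its late spermatocytes (2.04 to 34.9).

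Within the round spermatids both clusters of wild type carried this signal. The earlier one held 3.98 CPM (83 UMIs), and the later cluster held 2.90 CPM (26 UMIs). In the knockout the values were 3.33 CPM (23 UMIs) and 0.58 CPM (1 UMI). The log2 ratio of the earlier to the later cluster was 0.46 in wild type (-0.2 to 1.15) and 2.53 in the knockout (-0.1 to 7.89), so neither interval leaves out an equal level. The earlier round cluster stood 5.16-fold above the late spermatocyte cluster with Aurka, a division kinase, in wild type and 4.89-fold in the knockout.

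The floor for these low levels was read from the tenth of kept barcodes with the fewest UMIs, taken throughout as free RNA. Whether these barcodes hold no cell was not tested. In the tenth of kept barcodes with the fewest UMIs, Igf2bp1 held 3.60 CPM in wild type (6 UMIs in 1722 barcodes, 0.348% of barcodes) and 3.03 CPM in the knockout (7 UMIs in 1776 barcodes, 0.394%), at median depths of 968 and 1301 UMIs. As a CPM, the level in round spermatids was therefore no higher than in the shallowest barcodes. Counted per cell it was higher: round spermatids held 31.7 times in wild type and 15.9 times in the knockout the UMIs that as many shallow barcodes would hold. The same ratio was 144 and 43.0 in spermatogonia, 4.77 and 1.88 in late spermatocytes and 5.15 and 2.10 in elongating spermatids. Round spermatids were also the deepest class, with medians of 24131.5 and 18439 UMIs a cell.

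The somatic cells gave no Igf2bp1 signal above the shallow barcodes in wild type. Sertoli cells, which nurse the germ cells, held 2 UMIs in 743 wild type cells and 4 in 892 knockout cells (1.84 and 2.42 CPM), at 0.773 and 1.14 times the free RNA expected. Leydig cells, which make testosterone, held 0 UMIs in 62 wild type cells and 4 UMIs in 427 knockout cells (1.64 CPM, 2.38 times the free RNA expected). Peritubular myoid cells held 0 and 1 UMI, and macrophages 0 in both libraries. In wild type the exact Poisson upper bounds were 10.9 CPM in Leydig cells, 54.0 CPM in myoid cells and 24.5 CPM in macrophages. These few cells (62, 59 and 57) therefore do not show absence. In the wild type order of levels, spermatogonia came first, then early spermatocytes, round spermatids, Sertoli cells, elongating spermatids and late spermatocytes. The intervals of the first 2 places do not overlap (lower bound 53.5 against upper bound 42.0 CPM), nor do those of early spermatocytes and round spermatids, and all later neighbours overlap. In the knockout order every pair of neighbours overlaps.

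**Figure D1:**
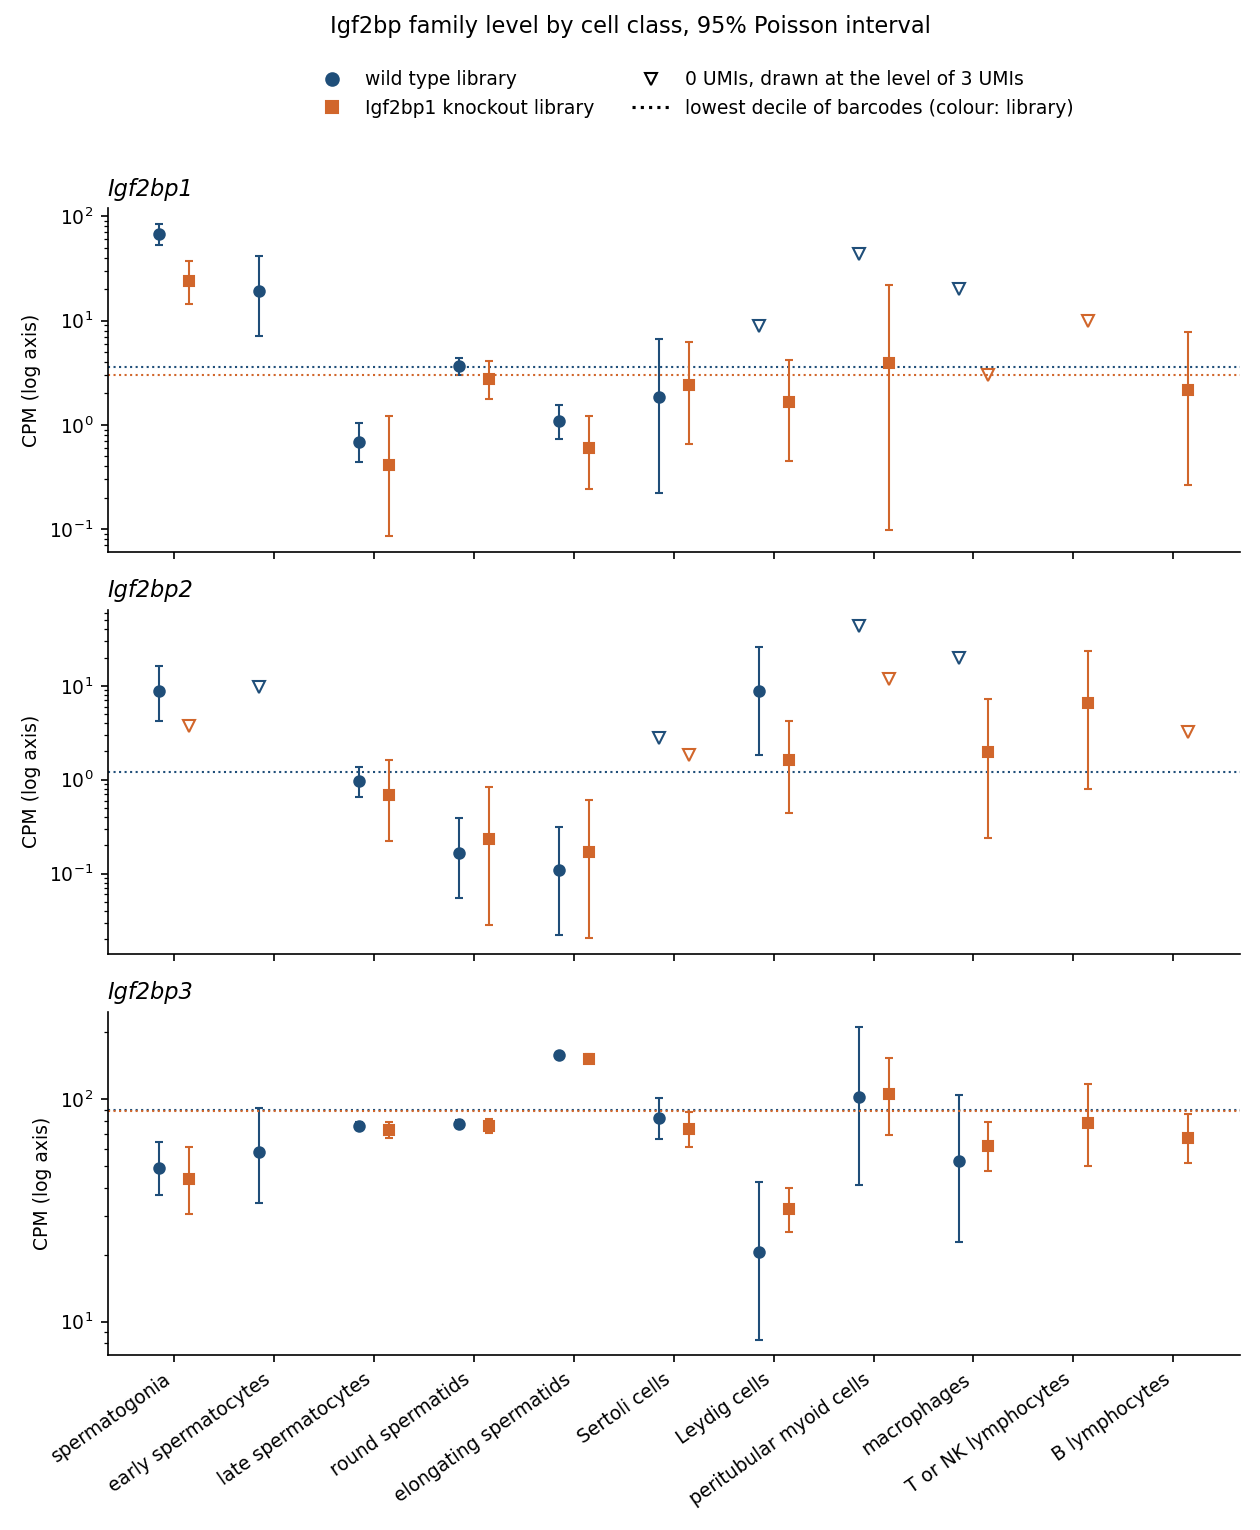
CPM of each member (log axis, 1 panel a gene) by class, for wild type and knockout, for groups of at least 50 cells, with exact Poisson 95% intervals as bars, open triangles at the level of 3 UMIs for groups with 0, and dotted lines at the shallowest barcodes of each library. Igf2bp1 is highest in spermatogonia at 67.7 CPM (wild type) and 23.8 CPM (knockout), whereas Igf2bp3 is highest in elongating spermatids at 159 and 152 CPM.

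Igf2bp1 was lower in the spermatogonia of the knockout library. The 112 knockout spermatogonia held 19 Igf2bp1 UMIs, or 23.8 CPM (14.3 to 37.1), against 77 UMIs and 67.7 CPM in wild type, and the intervals do not overlap. The level was 2.85-fold lower, a log2 ratio of knockout to wild type of -1.51 (exact conditional 95% interval -2.32 to -0.77). By the rule used here a call needs a ratio of 1.5-fold or more whose interval does not take in 1. Of 9616 genes with 20 or more UMIs in spermatogonia, 3.72% were called lower and 3.14% higher, and the median log2 ratio was -0.01. Igf2bp1 mRNA was thus still counted in the knockout spermatogonia, at 43.0 times the free RNA expected.

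Both the share of spermatogonia with an Igf2bp1 UMI and the UMIs in each differed. In wild type 47 of 153 cells (30.7%, Clopper-Pearson interval 23.5 to 38.7) had at least 1 UMI, of which 27 had 1, 11 had 2, 8 had 3 and 1 had 4. In the knockout 17 of 112 cells (15.2%, 9.10 to 23.2) had at least 1, of which 16 had 1 and 1 had 3. Depth differed as well, with medians of 7076 and 5901.5 UMIs a cell. After each cell was thinned to 1000 UMIs the shares were 4.61% (7 of 152 cells) and 3.57% (4 of 112), which is close to the level of single UMIs and too low to read a change from. Cells with an Igf2bp1 UMI were deeper than those without, at medians of 8354 against 6043 UMIs in wild type and 10507 against 5622 in the knockout.

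**Figure D2:**
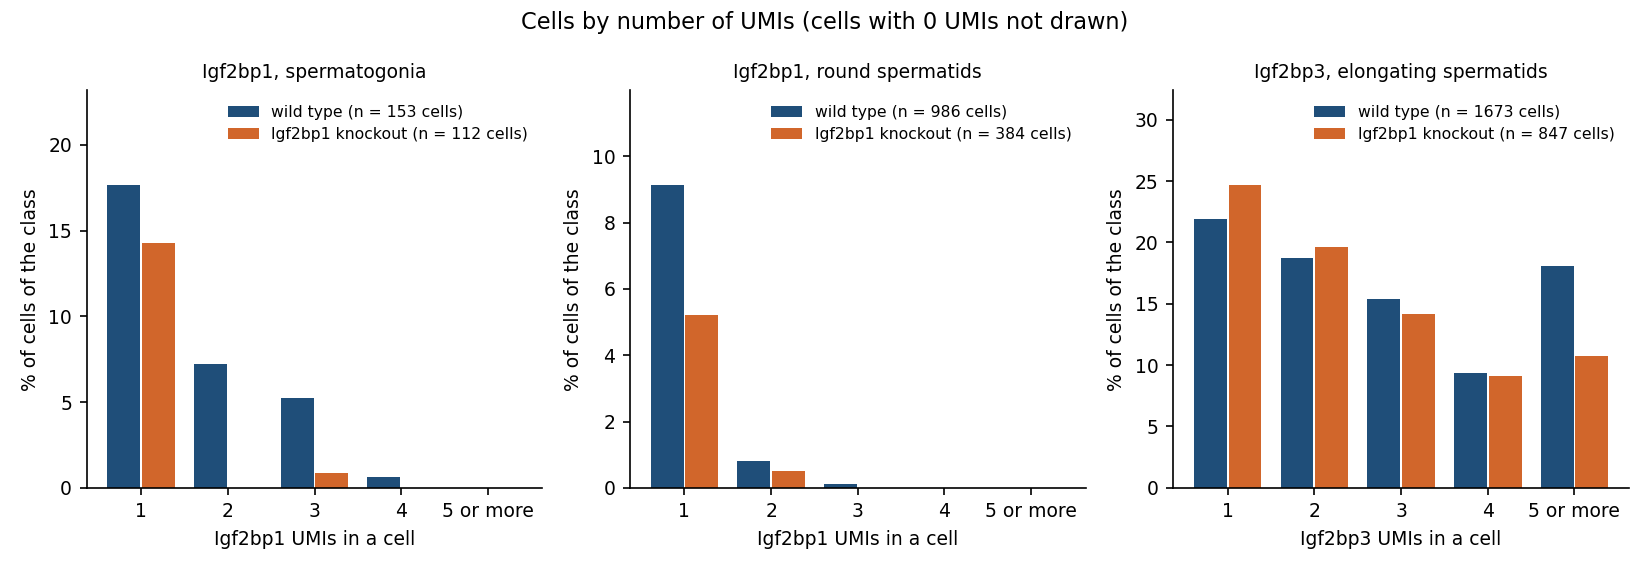
Share of cells (percent) by the number of UMIs counted in them, for Igf2bp1 in spermatogonia and round spermatids and Igf2bp3 in elongating spermatids, wild type beside knockout; cells with 0 UMIs are not drawn. In spermatogonia 20 wild type cells held 2 or more Igf2bp1 UMIs against 1 knockout cell, while elongating spermatids had an Igf2bp3 UMI in 83.6% of wild type and 78.3% of knockout cells.

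The direction was the same in each sub-cluster of spermatogonia, although 3 of them held few Igf2bp1 UMIs. Re-clustering gave 5 sub-clusters with Igf2bp1 UMIs in both libraries, and the CPM was lower in the knockout in each. The sub-cluster with most Gfra1 (22.9 CPM) and Zbtb16 (74.0 CPM), genes of undifferentiated spermatogonia, also held Kit, the receptor that marks differentiating spermatogonia, at 101 CPM. Its Igf2bp1 level was 78.0 CPM in wild type (39 UMIs) and 32.9 CPM in the knockout (8 UMIs). The next, with Gfra1 at 1.5 CPM, Zbtb16 at 17.7 CPM and Kit at 91.7 CPM, held 61.2 CPM (24 UMIs) and 17.6 CPM (5 UMIs). The other 3 held 36.3, 66.9 and 170 CPM in wild type (5, 6 and 3 UMIs). In the knockout they held 11.7, 24.1 and 32.1 CPM (1, 3 and 2 UMIs). These counts are too few to read a change from by themselves. The Leydig hormone gene Insl3 was at 11.4 CPM among wild type and 134 CPM among knockout spermatogonia, and protamine and transition protein UMIs were at 17318 and 16478 CPM. With the free RNA expected from the shallow barcodes taken off, 76.5 and 18.6 Igf2bp1 UMIs remained. The log2 ratio was then -1.45 (-2.26 to -0.70). Foreign RNA beyond the amount in a shallow barcode was not tested.

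In the later germ cells the Igf2bp1 ratios had intervals that take in no change. The log2 ratio was -0.74 in late spermatocytes (-3.12 to 0.99), -0.40 in round spermatids (-1.10 to 0.25) and -0.86 in elongating spermatids (-2.29 to 0.36). Called lower and higher were 2.45% and 4.98% of 14672 genes in late spermatocytes, 1.88% and 4.25% of 14639 in round spermatids, and 0.612% and 13% of 12415 in elongating spermatids. Pooled over the 3 classes, 162 wild type and 34 knockout UMIs gave -0.54 (-1.11 to 0.005), with 3.79% of 17510 genes called lower and 5.99% higher. The direction was the same in all 3 classes as in spermatogonia, and the sizes could not be separated from no change at this depth. Early spermatocytes held 0 Igf2bp1 UMIs in 24 knockout cells, with an exact Poisson upper bound of 27.5 CPM, above the 19.3 CPM of wild type.

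Over all kept barcodes Igf2bp1 was counted with 344 wild type and 196 knockout UMIs, a log2 ratio of -0.50 (-0.76 to -0.25). That is just under 1.5-fold and was not called, whereas 2.05% of 20770 genes were called lower and 27.8% higher. The median of all genes was 0.17, so relative to it the ratio was -0.67. The makeup of the libraries differed, since B cells numbered 335 in the knockout and 0 in wild type, and Leydig cells 427 and 62.

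**Figure D3:**
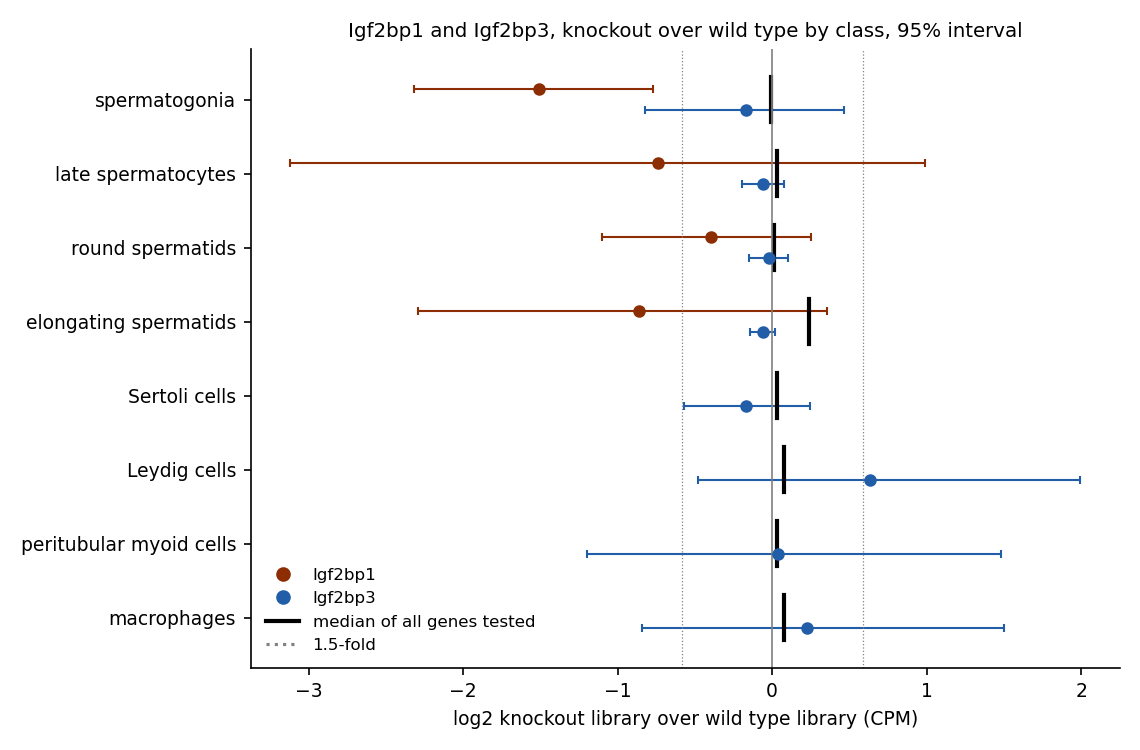
Log2 ratio of knockout to wild type CPM of Igf2bp1 and Igf2bp3 by class, where at least 20 UMIs were counted, with exact conditional 95% intervals, 1.5-fold as dotted lines, and black bars at the median of all genes tested in that class. Igf2bp1 in spermatogonia at -1.51 is the only ratio drawn that was called, and the Igf2bp3 ratios lie near 0 in all germ cell classes.

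Igf2bp2 was barely expressed in any testis class. The 2 libraries held 68 and 60 UMIs in all, or 0.564 and 0.616 CPM, with a log2 ratio of 0.13 (-0.40 to 0.65). With the free RNA expected from the shallow barcodes taken off, 48.3 and 60 UMIs remained, and the ratio of 0.80 (0.23 to 1.38) met the rule for a call; the shallow barcodes held 2 wild type and 0 knockout Igf2bp2 UMIs. Of the wild type UMIs 47.1% lay in late spermatocytes, at 0.959 CPM (32 UMIs) against 0.688 CPM in the knockout (5 UMIs), a log2 ratio of -0.48 (-2.2 to 0.89). Round spermatids held 0.168 CPM (5 UMIs) and 0.231 CPM (2 UMIs), so late spermatocytes were 5.72-fold higher in wild type (2.21 to 18.8) and 2.97-fold in the knockout (0.49 to 31.2), where the interval takes in no difference.

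The highest germ cell level of Igf2bp2 was again in wild type spermatogonia. They held 10 UMIs in 10 cells, or 8.80 CPM (4.22 to 16.2), which was 9.18-fold the level of late spermatocytes (4.02 to 19.1). Of those 10 UMIs, 6 lay in the sub-cluster with most Gfra1. Knockout spermatogonia held 0 UMIs, with an exact Poisson upper bound of 4.61 CPM. The log2 ratio of knockout to wild type had an upper bound of -0.66. With 10 UMIs in all, the gene was under the minimum of 20 for a call. Leydig cells held 8.84 CPM in wild type from 3 UMIs and 1.64 CPM in the knockout from 4. Sertoli and peritubular myoid cells held 0 in both libraries, macrophages 0 and 2 UMIs, and the 113 knockout T and NK cells 2 UMIs.

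Igf2bp3 was the abundant member and followed the opposite course. Total UMIs in kept barcodes were 11910 in wild type and 8570 in the knockout. The level was 49.3 CPM in wild type spermatogonia (56 UMIs), 57.9 CPM in early spermatocytes (18 UMIs), 75.9 CPM in late spermatocytes (2534 UMIs), 77.2 CPM in round spermatids (2301 UMIs) and 159 CPM in elongating spermatids (4406 UMIs). The knockout library held 43.8, 67.2, 72.8, 75.9 and 152 CPM in the same order. Elongating spermatids, which condense the nucleus and build the tail, were 2.06-fold above round spermatids in wild type (1.96 to 2.17) and 2.0-fold in the knockout (1.83 to 2.2). These folds compare shares of each class's own UMIs: with the gene-wise scaling of TMM the difference was 2.49 on the log2 scale in wild type and 2.25 in the knockout, against 1.04 and 1.0 by total UMIs.

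The rise began within the round spermatids. The earlier round cluster held 64.2 CPM in wild type and 63.4 CPM in the knockout, and the later one held 107 and 126 CPM, a step of 1.67- and 1.99-fold. The late spermatocyte cluster with Piwil1, a piRNA-binding protein of meiotic cells, held 67.6 and 68.6 CPM, and the cluster with Aurka held 78.9 and 75.5 CPM. Among elongating spermatids the earlier cluster at the finer clustering held 163 and 153 CPM and the later one 157 and 153 CPM, so the level was flat between these 2 clusters. They do not cover the whole class at that clustering. In wild type it held 5186 Igf2bp3 UMIs, of which 1675 lay in the earlier and 2688 in the later cluster. Detection was common: 83.6% of wild type elongating spermatids, 81.1% of round spermatids and 72.9% of late spermatocytes had an Igf2bp3 UMI, and the most in 1 cell was 21 UMIs, in a knockout elongating spermatid. Thinned to 1000 UMIs a cell, 15.2% of wild type and 13.3% of knockout elongating spermatids had one.

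**Figure D4:**
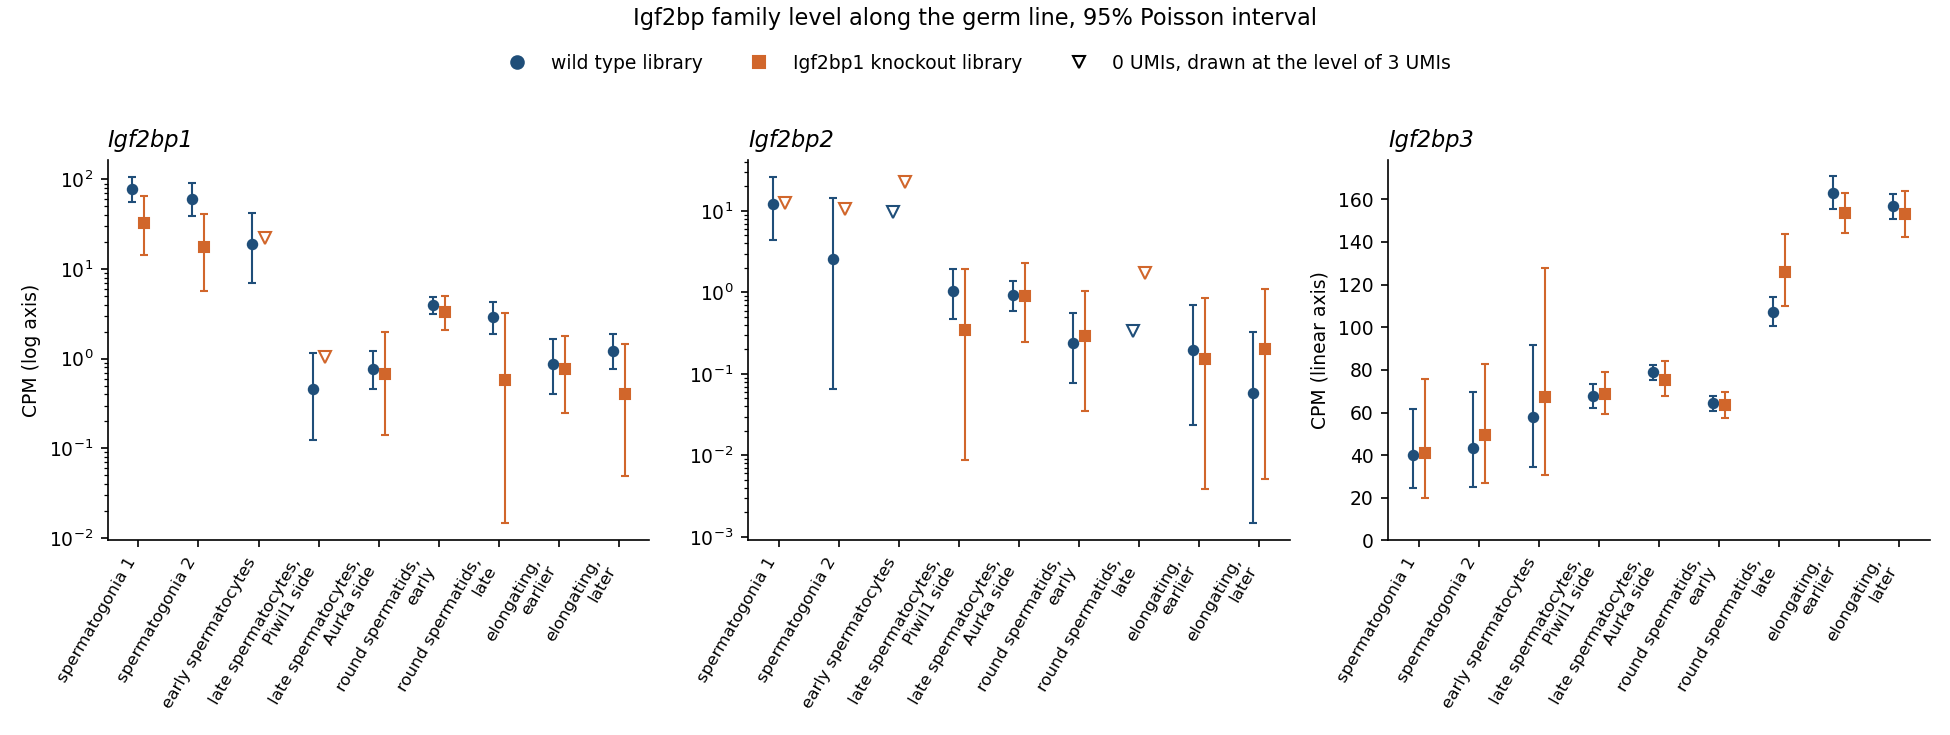
CPM of each member along the germ line, from the first 2 sub-clusters of spermatogonia to the later cluster of elongating spermatids, wild type beside knockout, with exact Poisson 95% intervals (log axis for Igf2bp1 and Igf2bp2, linear axis for Igf2bp3). Open triangles mark 0 UMIs at the level of 3; wild type Igf2bp1 is at 78.0 CPM in the first sub-cluster and, after low values in late spermatocytes, higher again in the earlier round cluster at 3.98 CPM, while Igf2bp3 steps up in the later round cluster at 107 CPM.

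Igf2bp3 did not differ between the libraries by the size needed for a call in any germ cell class. The log2 ratio was -0.17 in spermatogonia (-0.82 to 0.46), -0.06 in late spermatocytes (-0.2 to 0.08), -0.02 in round spermatids (-0.15 to 0.10) and -0.06 in elongating spermatids (-0.14 to 0.02). In elongating spermatids 13% of genes were called higher and the median of all genes was 0.24, so relative to that median Igf2bp3 was at -0.30. The intervals of the 3 later classes leave out a change of 1.5-fold in either direction, within counting error. In spermatogonia the interval does not leave out such a change.

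Somatic classes also held Igf2bp3 UMIs. As a CPM, they were at or under the level of the shallow barcodes within counting error. Sertoli cells held 82.8 and 73.8 CPM and peritubular myoid cells 102 and 105 CPM, macrophages 53.0 and 61.9 CPM and Leydig cells 20.6 and 32.0 CPM, against 90.0 and 88.4 CPM in the tenth of barcodes with the fewest UMIs, of which 8.13% and 10.5% had an Igf2bp3 UMI. Counted per barcode, somatic and lymphoid groups of at least 50 cells held more, at 1.19 to 1.85 times as many shallow barcodes. Knockout Leydig cells held 78 UMIs against 49.0 expected, knockout macrophages 62 against 39.6 and knockout Sertoli cells 122 against 102. The same ratio was 4.20 and 2.72 in spermatogonia, and 11.4 to 30.2 in late spermatocytes and spermatids. Between the libraries the Igf2bp3 log2 ratio was -0.17 in Sertoli cells (-0.57 to 0.24), where 2.56% of genes were called lower and 2.92% higher. It was 0.63 in Leydig cells (-0.48 to 1.99), with 2.94% and 3.56%, 0.04 in peritubular myoid cells (-1.2 to 1.48), with 2.42% each way, and 0.22 in macrophages (-0.84 to 1.5), with 3.77% and 2.96%. None of the 4 was called. Protamine and transition protein mRNAs, which belong to spermatids, give a second reading of free RNA. Per 1000 of their UMIs the shallow barcodes held 1.46 Igf2bp3 UMIs in wild type (1.24 to 1.72) and 1.88 in the knockout (1.63 to 2.16). Sertoli cells held 1.72 and 1.94, Leydig cells 1.37 and 2.44, peritubular myoid cells 1.69 and 2.28 and macrophages 1.99 and 2.42. Spermatogonia held 2.84 (2.15 to 3.69) and 2.66 (1.85 to 3.69), round spermatids 2.55 and 2.41, late spermatocytes 10.1 and 9.47, and elongating spermatids 0.53 in both. The spermatogonial values were above those of these 4 somatic classes in the same library. Their intervals overlap those of Leydig cells, myoid cells and macrophages. The Sertoli cell interval overlaps in the knockout (1.61 to 2.31) and lies just under in wild type (1.38 to 2.11). Round spermatids, with their own protamine mRNA, lay close to spermatogonia, so this ratio does not by itself separate cells that hold the mRNA from those with free RNA. The share of the spermatogonial Igf2bp3 level that is free RNA was not tested.

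Igf2bp1 and Igf2bp3 were counted together in some cells. In wild type spermatogonia 17 of 153 cells (11.1%) held a UMI of each, and in the knockout 6 of 112 (5.36%). In round spermatids the counts were 83 of 986 (8.42%) and 13 of 384 (3.39%). The product of the shares of cells with each gene would give 12.0 and 4.55 cells in spermatogonia and 80.3 and 15.4 in round spermatids. Thinned to 1000 UMIs a cell, 1 of 152 wild type spermatogonia (0.658%) still held both, and none of the thinned knockout spermatogonia or round spermatids of either library did, so co-detection could not be followed at an equal depth. Igf2bp1 and Igf2bp2 were found together in 6 wild type spermatogonia, and Igf2bp2 and Igf2bp3 in 5.

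The genes whose levels over the classes were most like each member's were ranked by Pearson's r of log2(CPM + 10) among the genes with at least 200 UMIs in kept barcodes (12145 for Igf2bp1 and 12152 for Igf2bp2 and Igf2bp3). The groups share libraries and depth, so r is a description. For Igf2bp1, over 9 wild type groups, the first 8 were Satb1, Lepr, Luzp4, Mageb4, Cdca7, Bckdhb, Sgo1 and Acvr2b, at r of 0.988 to 0.994. Of these, Satb1 and Bckdhb held only 7 and 8 UMIs in wild type spermatogonia. Their levels there, 6.16 and 7.04 CPM, were under the 10 CPM added before the log, so their r rests on few UMIs. In spermatogonia Lepr, the leptin receptor, was at 74.8 CPM in wild type and 100 CPM in the knockout, and Cdca7 at 167 and 121 CPM. Sgo1, a protector of centromeric cohesion, was at 69.5 and 77.5 CPM. Luzp4 was called lower, from 41.3 CPM in wild type (log2 ratio -1.05, -1.97 to -0.2). For Igf2bp3, over 19 groups, the first 8 were Odf2, Pcmt1, Arl2bp, Pgk2, Gdpd1, Zfand4, Spa17 and Dnajb3, at r of 0.937 to 0.966. Among them Odf2, a protein of the outer dense fibres of the sperm tail, was at 3549 and 3133 CPM in elongating spermatids, and Pgk2, the glycolytic kinase of sperm, at 804 and 807 CPM. For Igf2bp2, with its few UMIs, r of the first 8 was 0.761 to 0.806 over 19 groups, led by Slc9a3r2, Col18a1 and Socs1.

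In the Lin28 and let-7 list, 2 of the 14 genes tested in spermatogonia were called lower in the knockout and 0 higher, beside 3.72% and 3.14% of all genes. The median of the list was -0.17 and that of all genes -0.01. Lin28a, which blocks let-7 maturation, held 34 wild type and 7 knockout UMIs (29.9 and 8.75 CPM), a log2 ratio of -1.77 (-3.19 to -0.58). Trim71, a let-7 target that represses mRNAs, held 100 and 31 UMIs (88.0 and 38.8 CPM), a ratio of -1.18 (-1.81 to -0.59). The paralogue Lin28b was at 55.4 and 56.3 CPM, a ratio of 0.02 (-0.56 to 0.60). Hmga2, a chromatin protein and let-7 target, held 3 and 10 UMIs and was under the minimum.

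Like Igf2bp1, Lin28a and Trim71 were spermatogonial genes in wild type, 47.5- and 66.7-fold above their level over all kept barcodes. Their 3′ UTRs also hold more than 1 match to the let-7 seed, in the same capitals as above; the windows are shown because these are the 2 called genes of the list.
Lin28a, site 1: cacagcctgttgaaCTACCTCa
Lin28a, site 2: agatcgccacaaacCTACCTCa
Trim71, site 1: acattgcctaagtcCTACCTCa
Trim71, site 2: gtgataatttctatCTACCTCa
Trim71, site 3: ttagtatggattttCTACCTCa
Trim71, site 4: tggcaaaaagttgtCTACCTCa
The Lin28a windows lie at chr4:134005189-134005210 and chr4:134004551-134004572, and the Trim71 windows at chr9:114512472-114512493, chr9:114512376-114512397, chr9:114509047-114509068 and chr9:114509021-114509042, all on the minus strand. At least 1 match was present in 14.8% of 2567 UTRs of like length to Lin28a and in 29.9% of 833 to Trim71. Of 12 genes of the list that were tested and had a 3′ UTR in the annotation, 7 held a match and 5 held none. Of the 7, 2 were called lower, and of the 5, 0. The list was drawn up around let-7, so matches in it are no finding. Of all 20736 3′ UTRs searched, 8.95% held a match. With 2 calls, whether a match goes with a lower level was not tested. Lin28b holds 4 matches and Arid3a 2, and neither was called, at 0.02 and -0.35.

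Among mRNAs described as bound by IGF2BP proteins, 2 of 20 tested genes were called lower in knockout spermatogonia and 0 higher, beside 3.72% and 3.14% of all genes, with a median of -0.07 beside -0.01. Cdk6, a kinase of the G1 phase, held 46 and 16 UMIs (-1.02, -1.94 to -0.17), and the transcription factor Tfap4 held 22 and 5 (-1.63, -3.39 to -0.19). With all cells of the re-clustered cluster pooled, Tfap4 was at -1.02 with an interval that takes in no change (-2.58 to 0.27). The growth factor Igf2, the namesake target, held 0 and 1 UMI, and the non-coding H19 held 14 and 11. Mki67, a marker of cycling cells, held 152 and 148 UMIs and was not called at 0.47, and Actb was at -0.16. Lists of this kind come from other tissues, and no binding was measured here.

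Proteins that share RNA granules with IGF2BPs and the enzymes and readers of N6-methyladenosine, a mark that IGF2BPs are described to read, showed no call in spermatogonia. In the first list 0 of 20 tested genes passed in either direction, with a median of -0.24, and Ybx1, an mRNA storage protein, was at -0.05, Elavl1 at -0.28 and Hnrnpu at -0.43. In the second 0 of 14 passed, with a median of -0.03, and the methyltransferase Mettl3 was at 0.28 and the reader Ythdf2 at 0.33. Over the 4 lists 4 of 68 genes tested in spermatogonia were called lower (5.88%) and 0 higher, beside 3.72% and 3.14% of all genes.

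**Figure D5:**
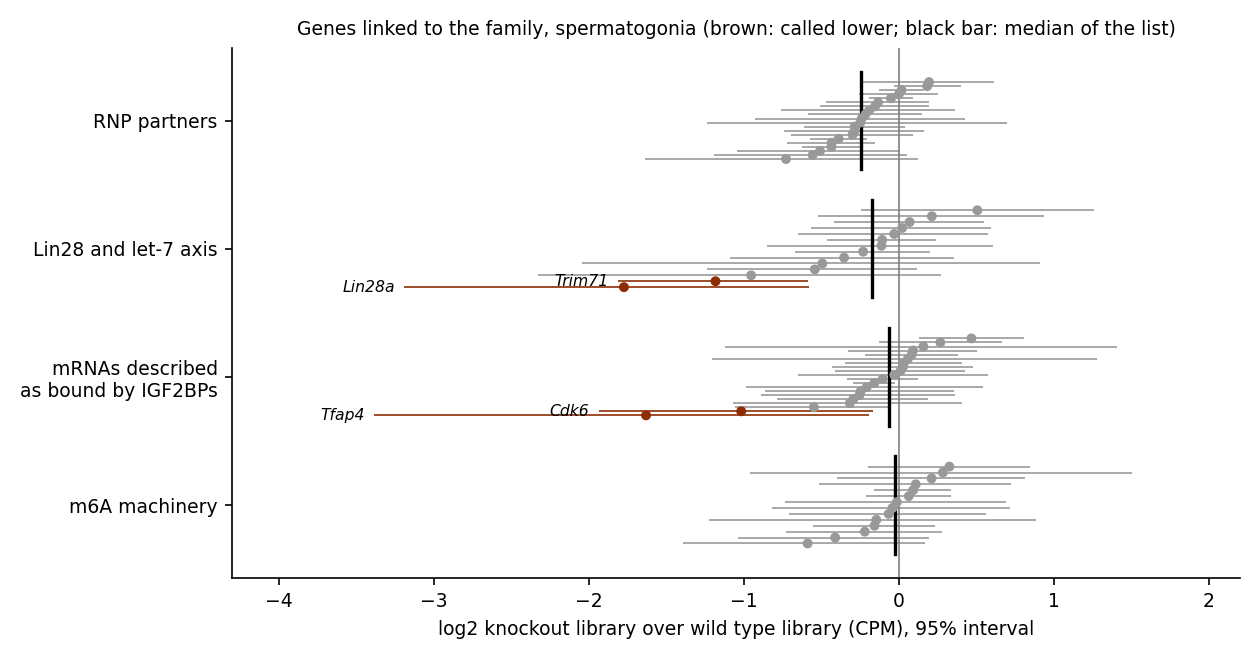
Log2 ratio of knockout to wild type CPM in spermatogonia for each tested gene of the 4 lists, with exact conditional 95% intervals, called genes in brown and a black bar at the median of each list. Lin28a (-1.77), Trim71 (-1.18), Cdk6 (-1.02) and Tfap4 (-1.63) are the called genes, and the list medians run from -0.24 to -0.03.

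In elongating spermatids the calls in these lists were all higher in the knockout. Over the 4 lists 12 of 58 tested genes were higher (20.7%), beside 13% of all genes there. Whether this share differs from that of all genes was not tested. The granule list had 5 of 18 genes higher, with a median of 0.36 beside 0.24 for all genes: Fmr1 at 1.53, Dhx9 at 0.87, Fxr2 at 0.82, Hnrnpa2b1 at 0.69 and Upf1 at 0.66. Of the N6-methyladenosine list 3 of 12 were higher, the reader Ythdf1 at 1.87, the demethylase Alkbh5 at 0.89 and Cbll1 at 0.69. Of the bound mRNAs 2 of 18 were higher, Ctnnb1, the beta-catenin gene, among them at 0.98, and of the Lin28 and let-7 list 2 of 10 were higher, Plagl2 at 1.11 and Dis3l2 at 0.63. No member of the Igf2bp family was called there. In late spermatocytes 61 listed genes were tested, beside 2.45% of all genes called lower and 4.98% higher: Foxk1 (-0.64) and Kpna2 (-0.63), an importin, were lower and Mki67 (0.68) higher. In round spermatids Plagl2 (0.60) was higher among 62 tested, beside 4.25% of all genes. Sertoli cells had the demethylase Fto higher (0.76) among 45 tested, beside 2.92%, and macrophages had Cdk6 lower (-1.44) among 44, beside 3.77%. In peritubular myoid cells Caprin1 was lower (-1.19) and the cyclin Ccnd3 higher (1.93) among 14 tested, beside 2.42% each way. In Leydig cells 0 of 55 were called, beside 2.94% lower and 3.56% higher. In these classes other than elongating spermatids, the calls were too few to be read as different from the background.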

How the data were processed

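The authors deposited raw UMI counts per gene and barcode from 10x Genomics 3′ libraries of testis, 1 per genotype; Cell Ranger 2.2.0, STAR and mm10 are named per the submitters' processing notes, and the matrix header gives software version 3.1.0. Barcodes with at least 500 UMIs and 250 genes and at most 20% mitochondrial UMIs were kept. Both libraries were clustered together without the members (scanpy 1.11.5, Leiden resolution 1), and clusters were named from marker lists; the numeric limits for a name were set after seeing the data. Doublets were neither called nor removed; mixed clusters stayed unnamed. Members and lists were chosen with earlier results of these data known. UMIs were summed per class and library, and no test was made with 1 library a genotype. Ratios were computed for genes with at least 20 UMIs in classes of at least 50 cells in each library, with exact conditional binomial intervals, and the script was tested on simulated data. Genes named besides the members are the 8 most alike, the called genes of each list (at most 6), and uncalled list genes given for contrast, which were chosen after their values were seen. Of the 31053 gene IDs, 30934 matched GENCODE M21. Alternatives covered filters, resolution, naming, scaling (TMM in edgeR 4.0.16; median of ratios), free RNA and thinning. One listed gene is not reported here.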

Additional observations from a re-analysis of the deposited data

How the results depend on the processing

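No paired analysis was possible because each genotype has 1 library. Of 109 alternative values 91 kept direction and call, or moved within counting error, 0 reversed, 1 lost its call and 17 moved. Igf2bp1 in spermatogonia was at -1.69 to -1.19 and met the rule for a call wherever an interval could be had; with clusters weighted equally (-1.36) there is none. Igf2bp2 over all kept barcodes moved to 0.80 with free RNA taken off and then met the rule for a call. Its main value of 0.13 changed sign to -0.02 with TMM and -0.07 with median of ratios. Igf2bp3 in round spermatids, at -0.02, changed sign to 0.05 with cells named by their own markers. It moved to 0.14 with clusters weighted equally, with no interval. Igf2bp1 in wild type spermatogonia over late spermatocytes was 5.56 with TMM and 5.55 with median of ratios, against 6.62 (log2). Igf2bp3 in elongating over round spermatids, 1.04 in wild type and 1.0 in the knockout, was 2.49 and 2.25 with TMM, 2.52 and 2.27 with median of ratios, 1.30 and 1.19 with cells named by their own markers, 0.89 and 0.69 with clusters weighted equally, and 0.88 in wild type at resolution 2. Without thinning, co-detection was 11.1% and 5.36% in spermatogonia and 8.42% and 3.39% in round spermatids. The cause of these shifts was not tested. With no UMI minimum 863 genes were called in spermatogonia and with 50 UMIs 453, against 660. Tfap4 (-1.02) lost its call when all re-clustered cells were used. Alternatives on shared barcodes, on re-clustered cells and on Lin28a, Trim71, Cdk6 and Tfap4 were chosen after seeing the data. Depth limits Igf2bp2 throughout, and Igf2bp1 outside spermatogonia and round spermatids.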

Other observations

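The barcodes that could not be named also held the members. In clusters of few UMIs, Igf2bp1 was at 3.45 CPM in wild type (53 UMIs, 0.461% of 11499 barcodes) and 2.51 CPM in the knockout (33 UMIs, 0.407% of 8100 barcodes), near the 3.60 and 3.03 CPM of the shallowest barcodes. In clusters that mix the markers of several types it was at 3.93 CPM in wild type (44 UMIs, 325 barcodes) and 2.00 CPM in the knockout (98 UMIs, 5531 barcodes). The knockout mixed clusters therefore held more Igf2bp1 UMIs than its 112 spermatogonia, which held 19, but not more for their size. The mixed clusters held 50% of the Igf2bp1 UMIs and 50.3% of all UMIs of the knockout library. Its spermatogonia held 9.69% and 0.821%.

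Lymphoid cells, found almost only in the knockout library, had little of the family. The 335 B cells held 2 Igf2bp1 UMIs and 0 of Igf2bp2, and Igf2bp3 was at 67.3 CPM, under the 88.4 CPM of the shallowest knockout barcodes. T and NK cells (113) held 0 Igf2bp1 UMIs and Igf2bp3 at 78.7 CPM. Counted per barcode, Igf2bp3 was at 1.61 times the shallowest knockout barcodes in B cells and 1.85 times in T and NK cells. Per 1000 protamine and transition protein UMIs, Igf2bp3 was at 2.61 in B cells and 2.91 in T and NK cells, against 1.88 in those shallowest barcodes.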
